A study of Mus musculus with 8 samples.

Results

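The 10 genes described here are 5 fibroblast growth factor (FGF) receptors (Fgfr1, Fgfr2, Fgfr3, Fgfr4 and Fgfrl1), 3 FGF ligands (Fgf2, Fgf7 and Fgf21) and 2 Sprouty genes (Spry1 and Spry2). They were chosen by name, out of 27179 genes in the deposited expression table, and all 10 were found there by Entrez identifier. The cells were C2C12 myoblasts, an established mouse line that divides in rich serum and fuses into myotubes once serum is lowered. Growth medium (GM) samples were dividing cultures in 10% fetal bovine serum at day 0, and 3d DM samples were near-confluent cultures moved to 2% horse serum for 3 days. Both states were grown in high-glucose DMEM on collagen-coated plates, no gene was altered, and the 2 states therefore differ in serum, cell density and time together. Each state had 2 input libraries of fragmented poly(A) RNA, which give RNA levels, and 2 libraries immunoprecipitated with an antibody to N6-methyladenosine (m6A, the most common internal mark of mRNA), which give peaks against their own input.

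FGFs are secreted growth factors that pair receptor tyrosine kinases on the cell surface with the help of heparan sulfate chains, and the paired receptors switch on the RAS-ERK kinase cascade. In myoblasts this signal is known to favour division and to hold back differentiation. Sprouty proteins are induced by the same cascade and dampen it, as do the dual-specificity phosphatases, which remove the activating phosphates from ERK.

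Marker genes followed the labels. Myog, a transcription factor of early differentiation, had normalized signals of 1008 and 221 in the GM libraries and 5392 and 11502 in 3d DM, and Mki67, a protein of dividing cells, had 3586 and 3659 against 446 and 760. Embryonic myosin Myh3 (1068 and 273 against 33485 and 51674) and muscle creatine kinase Ckm (110 and 17.1 against 1740 and 1996) lay on the same side as Myog. The summed signal of 8 genes of differentiated muscle was 9182 in GM replicate 1 and 1796 in GM replicate 2, against 113466 and 148582 in 3d DM, so GM replicate 1 held more RNA of this kind than its partner. All 5 genes of myoblast identity passed the minimum for testing, whereas none of the genes listed for endothelial, blood or fat cells did, and their sums reached at most 10.5, 26.4 and 0. Of 4 fibroblast markers Thy1 was at 0 throughout and the sum was 238 and 188 in GM, compared with 1229 and 1606 in 3d DM, where most of it was Col1a1. Of 4 neural markers Rbfox3 was at 0 and Tubb3 made up most of a sum of 492 to 1789. The part of these signals in the results below was not tested. In bulk RNA, fewer cells of a type and less RNA per cell cannot be told apart.

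The signal is the deposited normalized value of a gene in a library, on a scale where each library sums to about the same total. Comparisons between libraries rest on this scale, so calls were also made after rescaling. Comparisons between genes also need division by exon length, taken as the union over annotated transcripts. A gene was tested where it reached 25.1, which is 2 parts in 1e6 of that total, in at least 2 of the 4 libraries. By this rule 8 of the 10 genes were tested, among 11406 in all. Differences are given on the log2(signal + 1) scale as GM minus 3d DM with the standard error (SE), and the p-values are those of limma after Benjamini-Hochberg adjustment over all tested genes. A gene is called changed where the adjusted p is under 0.05. The median difference of all tested genes was 0.22, and rescaling the libraries by the median of ratios or a trimmed mean brought it to 0.00 or 0.01.

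Fgfr3, Fgfrl1, Fgf21 and Spry1 were higher in 3d DM, none of the 8 tested genes was higher in GM, and Fgfr1, Fgfr4, Fgf7 and Spry2 did not pass the test. Of all tested genes, 7.01% were called higher in 3d DM and 9.96% were higher under GM. The same 4 genes were called under both rescalings, with limma adjusted p from 0.00299 to 0.00918. On the deposited scale the SE followed the trend over all genes. The p-values there, some far smaller, thus do not measure the spread of a gene's own replicates. Both 3d DM libraries lay above both GM libraries for these 4 genes, as for 16.8% of all tested genes. Both GM libraries lay above both 3d DM libraries for Fgf7 and Spry2, as for 37.0% of all tested genes. Fgf7 reached the minimum in its GM libraries only and Fgfr3 in its 3d DM libraries only, so the filter itself fixed their order. Fgfr3 reached the minimum in neither GM library, and Fgf21 and Spry1 did so in only 1 of them. These 3 genes therefore entered the test through their 3d DM values, and where all 4 libraries had to reach the minimum only Fgfrl1 was called of the 4 genes left.

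**Figure D1:**
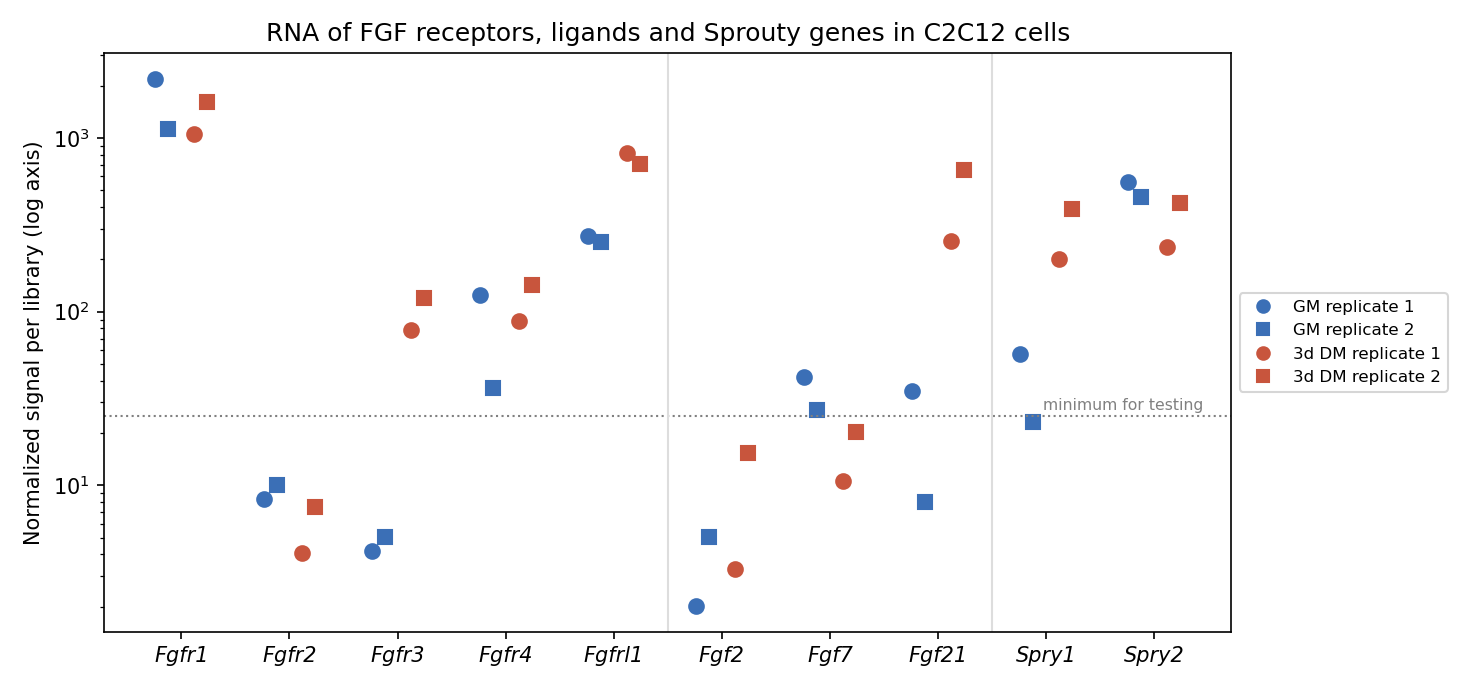
Normalized signal of each gene in each input library, on a log axis, with GM in blue, 3d DM in red, circles for replicate 1 and squares for replicate 2. The dotted line is the minimum of 25.1 for testing. The red points of Fgfr3, Fgfrl1, Fgf21 and Spry1 sit above their blue points, and those of Fgfr1 and Fgfr4 overlap them.

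Among the receptors, Fgfr1 (Entrez 14182, chr8:25513654-25575718 on the plus strand of mm10) was the most abundant kinase receptor in every library. It is the main receptor through which FGF2 acts on myoblasts. Its signal was 2174 and 1126 in GM against 1049 and 1616 in 3d DM, so the states overlapped. The means were 1650 ± 741 and 1333 ± 400 (SD, n = 2 each), and the difference of 0.27 (SE 0.42, limma adjusted p = 0.779) did not pass the test. Its sign turned without GM replicate 1 (-0.21) and without 3d DM replicate 1 (-0.046).

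Fgfr3 (Entrez 14184, chr5:33721674-33737068, plus strand) encodes a kinase receptor best known as a brake on bone growth. Its signal was 4.17 and 5.02 in GM, compared with 78.4 and 119 in 3d DM. Both 3d DM libraries were far above both GM libraries, and the means of 4.59 ± 0.60 and 98.9 ± 28.9 (SD, n = 2 each) stood 21.5-fold apart. The difference was -4.13 (SE 0.66, limma adjusted p = 1.32e-08). Without either of the 3d DM libraries Fgfr3 failed the minimum and was not tested.

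Fgfr4 (Entrez 14186, chr13:55152640-55168759, plus strand), a kinase receptor known from regenerating muscle, had signals of 124 and 36.2 in GM against 88.8 and 142 in 3d DM. The GM libraries were 1.76 log2 units apart, against a median of 0.36 for all tested genes, and the states overlapped. The difference of -0.73 (SE 0.52, limma adjusted p = 0.414) did not pass the test, and it was 0.15 without GM replicate 2. Fgfr2 (Entrez 14183, chr7:130162451-133123350, minus strand), the receptor of FGF7 in epithelia, stayed below the minimum in all libraries, with 8.35 and 10.0 in GM, compared with 4.06 and 7.48 in 3d DM, and was not tested.

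Fgfrl1 (Entrez 116701, chr5:108692382-108706924, plus strand) binds FGFs but lacks the kinase domain of the other receptors. Its signal was 271 and 253 in GM against 824 and 709 in 3d DM. The replicates lay close together in both states, and the means of 262 ± 12.9 and 766 ± 81.2 (SD, n = 2 each) were 2.93-fold apart. The difference was -1.54 (SE 0.45, limma adjusted p = 0.00515). With 1 library left out it ranged from -1.65 to -1.43, and the call was lost without GM replicate 1 (adjusted p = 0.177), GM replicate 2 (0.286) or 3d DM replicate 1 (0.0888). Fgfrl1 was the only called gene to reach the minimum in every library.

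The balance among the receptors was also taken within each library, where scaling between libraries cancels out. Per kilobase of exon, Fgfr1 made up 85.8% and 90.6% of the signal of the 4 kinase receptors in GM, compared with 74.5% and 74.0% in 3d DM. Fgfr3 made up 0.227% and 0.557% in GM against 7.68% and 7.54% in 3d DM, and Fgfr4 13.7% and 8.11% against 17.6% and 18.1%. When Fgfrl1 was counted with them, it held 27.5% and 41.9% of the signal of the 5 receptors in GM, compared with 67.5% and 53.6% in 3d DM. These shares rest on the union exon length over annotated transcripts, 9875 nt for Fgfr1 and 2782 nt for Fgfrl1. Before division by length, Fgfr1 had the higher signal in both 3d DM libraries (1049 and 1616 against 824 and 709). Per kilobase, Fgfr1 held the largest share in both GM libraries (62.2% and 52.6%). It stood second behind Fgfrl1 in both 3d DM libraries (24.2% and 34.4%). The states did not overlap for these shares, and the exact permutation test gave p = 0.333 for each, which is the smallest value that 2 libraries against 2 can give. They did overlap for Fgfr4 as a share of all 5 receptors (9.92% and 4.71% under GM, 5.71% and 8.40% under 3d DM, exact permutation p = 1) and for Fgfr2 as a share of the 4 kinase receptors (0.315% and 0.771%, then 0.275% and 0.328%, exact permutation p = 0.667).

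**Figure D2:**
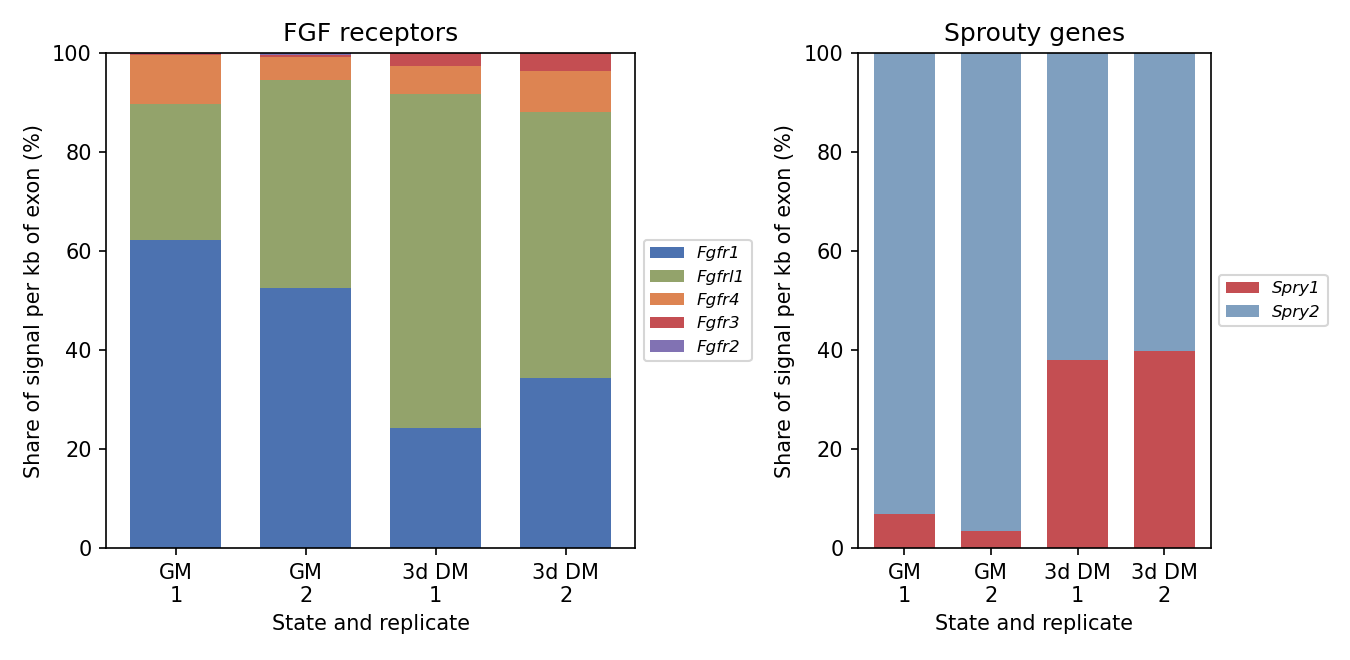
Shares of the signal per kilobase of exon within each input library, as stacked bars that sum to 100%, for the 5 receptors on the left and for Spry1 and Spry2 on the right. Fgfr1 is the largest receptor block in both GM libraries and Fgfrl1 in both 3d DM libraries, and the Spry1 block grows from at most 6.87% to at least 38.0%. Lengths are the union of exons over annotated transcripts, and the order of Fgfr1 and Fgfrl1 in 3d DM depends on that division.

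Among the ligands, Fgf21 (Entrez 56636, chr7:45613886-45615490, minus strand) encodes an endocrine FGF that muscle is known to release under metabolic and mitochondrial stress. Its signal was 35.0 and 8.05 in GM against 255 and 656 in 3d DM. The replicates differed by 1.99 log2 units in GM and by 1.36 in 3d DM, yet the lowest 3d DM library was well above the highest GM library. The means were 21.5 ± 19.1 and 455 ± 284 (SD, n = 2 each), 21.2-fold apart, with a difference of -4.51 (SE 0.53, limma adjusted p = 8.73e-16). With no filter on low values the SE was 1.03 and the limma adjusted p was 0.344. The difference was -5.50 without GM replicate 1, -3.51 without GM replicate 2, -5.19 without 3d DM replicate 1 and -3.83 without 3d DM replicate 2. The call held in each of these fits, with a largest adjusted p of 0.0461. Klb, the co-receptor that FGF21 needs for its endocrine action, lay between 1.43 and 4.01 in the 4 libraries and was not tested; it is named here after its values were seen.

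Fgf7 (Entrez 14178, chr2:126034658-126091185, plus strand), also called keratinocyte growth factor, had signals of 42.1 and 27.1 in GM, compared with 10.6 and 20.2 in 3d DM. Only its GM libraries reached the minimum, so the filter fixed that they lay above both 3d DM libraries. Its GM values were close to the minimum, and the difference of 1.15 (SE 0.66, limma adjusted p = 0.266) did not pass the test. Fgf2 (Entrez 14173, chr3:37348346-37410108, plus strand), basic FGF and a standard additive for muscle cells, stayed below the minimum in every library. Its signal was 2.03 and 5.01 in GM against 3.28 and 15.3 in 3d DM, and it was not tested.

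The Sprouty genes differed from each other. Spry1 (Entrez 24063, chr3:37639947-37644598, plus strand), known for its role in the return of muscle stem cells to rest, had signals of 57.0 and 23.1 in GM, compared with 201 and 391 in 3d DM. The means of 40.1 ± 24.0 and 296 ± 134 (SD, n = 2 each) were 7.38-fold apart without overlap, and the difference was -2.91 (SE 0.51, limma adjusted p = 3.51e-07). It was -3.54 without GM replicate 1, -2.28 without GM replicate 2 and -3.39 without 3d DM replicate 1. Without 3d DM replicate 2 it was -2.43 and the call was lost (adjusted p = 0.0714).

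Spry2 (Entrez 24064, chr14:105891947-105896819, minus strand) had signals of 555 and 458 in GM against 235 and 424 in 3d DM, with GM replicate 2 and 3d DM replicate 2 nearly level. The difference of 0.67 (SE 0.45, limma adjusted p = 0.369) did not pass the test. Within each library, Spry1 made up 6.87% and 3.50% of the signal of both genes per kilobase in GM, compared with 38.0% and 39.8% in 3d DM. Spry2 was thus the more abundant of the pair in all 4 libraries, by a smaller margin in 3d DM (exact permutation p = 0.333, the smallest possible).

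GM replicate 1, which held more differentiation RNA than GM replicate 2, was the higher GM library for 7 of the 8 tested members, with Fgfr3 the exception. This held whichever state they were higher in, and the part of that RNA in the GM values was not tested. The median-of-ratios factor was 0.23 log2 units for GM replicate 1 and 0 for GM replicate 2. Tested genes as a whole thus lay higher in GM replicate 1, but the share of them with this order was not taken. Whether the order is particular to the members was not tested. A single entry without a name in the gene tables used here took 24.4% and 33.2% of the total in GM against 41.3% and 25.6% in 3d DM, and so weighs on the scale of each library.

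The other genes of the pathway were 85 genes in 7 lists, of which 59 were tested. In all, 10 were called, of which 8 were higher in GM and 2 in 3d DM, beside 9.96% and 7.01% of all tested genes, and their median difference was 0.14 against 0.22 for all genes. After rescaling by the median of ratios or the trimmed mean, 15 were called, of which 6 were higher in GM and 9 in 3d DM, and 7 of the 15 were among the 10 called as deposited. The split between the states thus depends on the scale. Shares of all tested genes were not taken after rescaling, so the 6 and 9 cannot be set beside them. Each of the 10 calls was lost when some single library was left out. The number of calls was 8 without GM replicate 1, 2 without GM replicate 2, 2 without 3d DM replicate 1 and 5 without 3d DM replicate 2.

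The feedback inhibitors other than the members gave 3 of 14 tested genes higher in GM and none higher in 3d DM. The shares of all tested genes were 9.96% and 7.01%. The median difference of the 14 was 0.52, and the 3 called were all phosphatases of ERK. Dusp4 had signals of 792 and 1082 in GM against 172 and 238 in 3d DM (difference 2.19, SE 0.45, limma adjusted p = 1.82e-05). Dusp5 had 80.5 and 266 against 20.6 and 28.9 (2.54, SE 0.55, adjusted p = 6.97e-05). Dusp6 had 299 and 351 against 93.1 and 197 (1.25, SE 0.47, adjusted p = 0.0477), and lost its call under both rescalings, with adjusted p of 0.0533 and 0.0513. Il17rd, a membrane inhibitor of FGF signalling named after its values were seen, was called higher in 3d DM under both rescalings (adjusted p = 0.0371 and 0.038). On the deposited scale Spry1 was thus called higher in 3d DM, and Dusp4, Dusp5 and Dusp6 were called higher in GM. The remaining 11 of the 14 inhibitors were not called on that scale. Among them Il17rd had signals of 76.7 and 64.2 in GM against 133 and 133 in 3d DM.

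The ERK-responsive transcription factors gave 4 of 11 tested genes higher in GM and none higher in 3d DM as deposited. Of all tested genes, 9.96% and 7.01% were called in these directions. Fosl1, an AP-1 subunit, had signals of 67.9 and 249 in GM, compared with 4.29 and 11.4 in 3d DM (difference 4.02, SE 0.62, limma adjusted p = 3.18e-09). It reached the minimum in neither 3d DM library, so it entered the test through its GM values, and Dusp5, Fgf11 and Fgfbp1 reached it in only 1 library of the state where they were lower. Etv4, an ETS factor induced by FGF signalling, had 484 and 750 against 110 and 150 (2.22, SE 0.46, adjusted p = 2.67e-05). Elk3, a cofactor of serum response factor, had 1214 and 1123 against 286 and 409 (1.77, SE 0.44, adjusted p = 0.000654). Myc, a driver of cell growth, had 357 and 955 against 170 and 275 (1.43, SE 0.45, adjusted p = 0.0126), and its call was lost under both rescalings (0.147 and 0.142). The other 7 factors of the list did not pass the test on the deposited scale. Junb, named after its values were seen, was called higher in 3d DM under both rescalings (adjusted p = 0.0259 and 0.0258).

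Of 9 tested co-receptors and ligand binders, Fgfbp1 was called higher in 3d DM and Sdc3 higher in GM. Fgfbp1, a carrier that frees FGFs from the matrix, had signals of 53.9 and 17.1 in GM against 229 and 402 in 3d DM (difference -3.27, SE 0.52, limma adjusted p = 8.75e-09). Sdc3, a heparan sulfate proteoglycan, had 176 and 467 against 74.0 and 161 (1.39, SE 0.48, adjusted p = 0.0267), and was not called under either rescaling (0.179 and 0.175). Under both rescalings this list held 4 genes higher in 3d DM and 0 higher in GM, namely Fgfbp1 and, named after their values were seen, Gpc1, Sdc2 and Hspg2. Fgf11, the 1 tested gene among 4 intracellular FGF homologues, which are not secreted, had 18.8 and 26.1 against 89.8 and 125 (-2.21, SE 0.57, adjusted p = 0.00128). No call was made among 2 tested other ligands of 15, among 10 receptor adaptors or among 12 RAS-ERK kinases, where the differences ran from -0.99 to 0.91. Under both rescalings 3 of these kinases were called, 1 higher in GM and 2 in 3d DM.

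**Figure D3:**
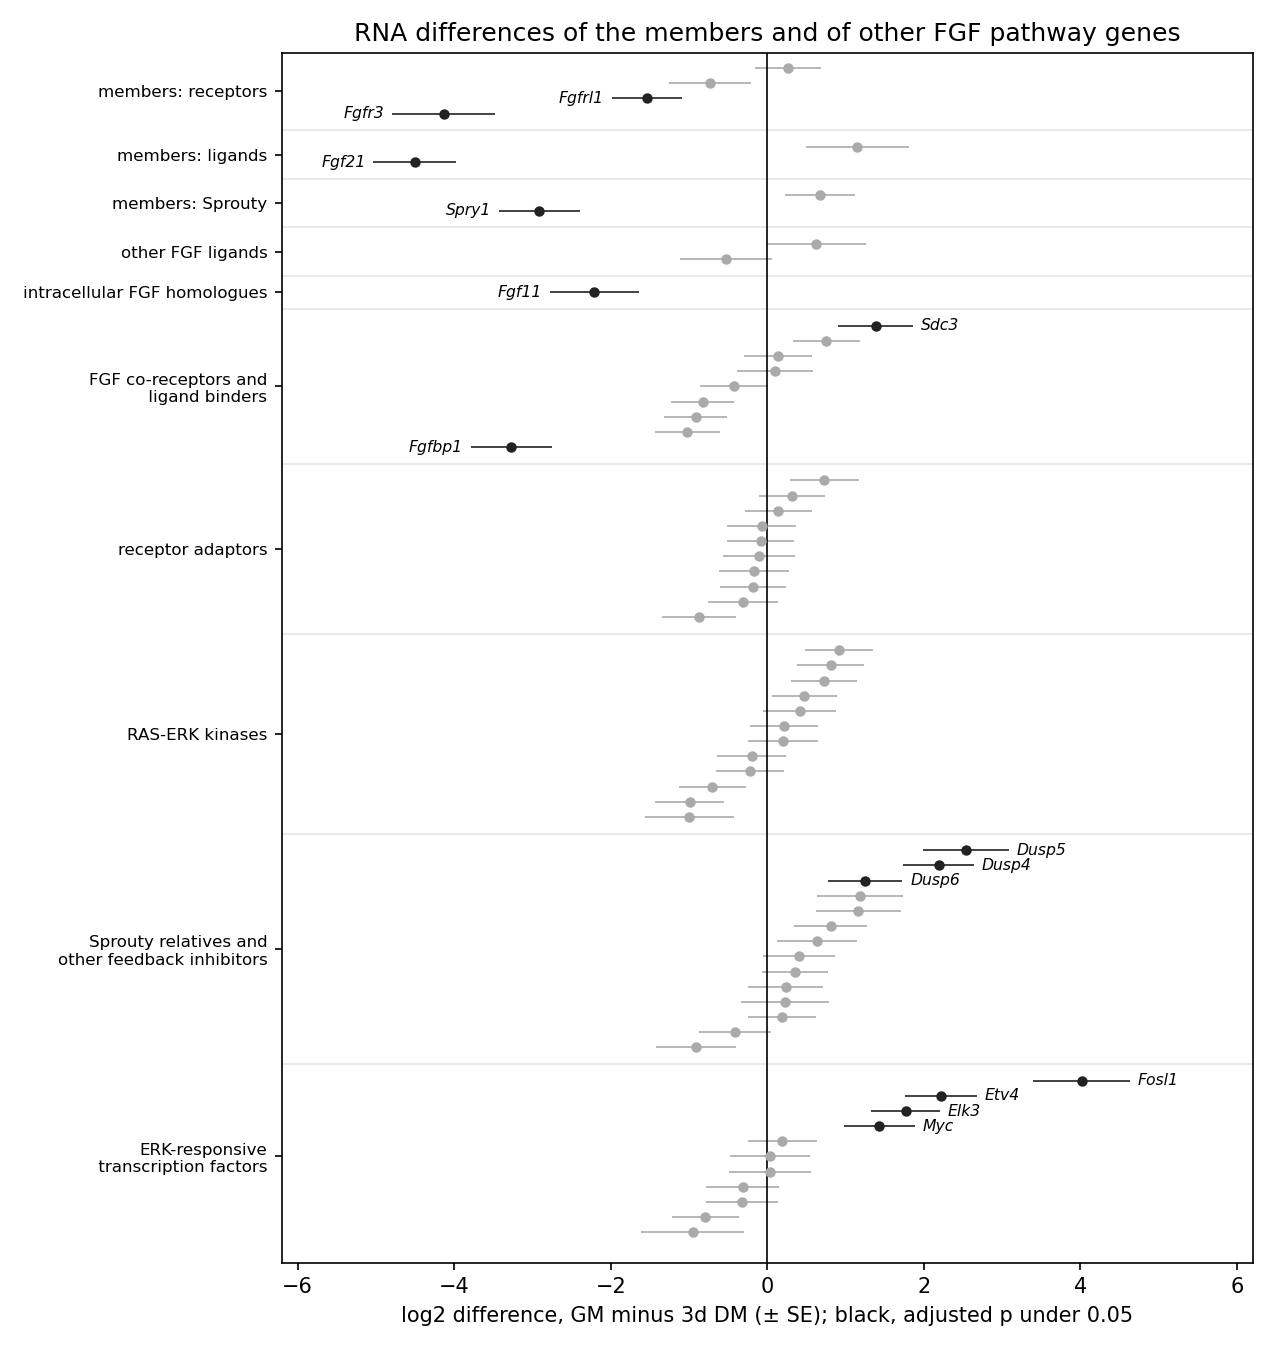
Differences of the 8 tested members and the 59 other tested pathway genes, as GM minus 3d DM on the log2(signal + 1) scale with bars of 1 SE, grouped by list. Black points passed the test and are named. The named members lie left of 0, on the 3d DM side, and the named feedback inhibitors and transcription factors lie right of 0.

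The m6A lists showed peaks on 7 of the 10 genes, and on Fgfr1 and Spry2 in all 4 lists. A peak is a stretch of transcript with more immunoprecipitated than input RNA, called for each library on its own, and its fold is the ratio of immunoprecipitated to input RNA. Fgfr3, Fgfr4 and Fgf21 had no peak in any list. Of the tested members, 5 of 8 had a peak in at least 1 list and 2 of 8 in all 4 lists, against 75.1% and 42.0% of all tested genes. For the other pathway genes these numbers were 54 and 32 of 59. The lists held 5 and 4 of the 10 genes in GM, compared with 6 and 4 in 3d DM, with means of 4.5 ± 0.71 and 5.0 ± 1.41 (SD, n = 2 each, exact permutation p = 1.0). The files give no reads under the peaks. A gene without a peak thus cannot be told apart from a gene with too little RNA to call one. Fgfr3 and Fgf21 were low in GM. In 3d DM, Fgfr3 (78.4 and 119) and Fgf21 (255 and 656) had no peak, and Spry1 (201 and 391) had a peak in both lists. The part of RNA level in these calls was not tested.

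After merging of overlapping lines, the 7 genes carried 12 distinct peaks, of which 2 were in all 4 lists and 6 in a single list. Antibodies to m6A enrich fragments of RNA, and within them the mark is known to sit on the A of the consensus DRACH, where D is A, G or T, R is A or G, and H is A, C or T. The transcripts were searched on their own strand for DRACH and for GGACT, its most favoured form, which is also a DRACH. The sequences below are the 30 bases around the match nearest the middle of the stretch shared by the lists, taken from the mm10 genome, for the 5 peaks called in at least 3 lists and for the only ligand peak with a GGACT. The match is in capitals, and it marks a possible site, not a measured one.
Fgfr1 stop codon peak: cttgccaacagtGGACTcaaacggcgctga
Fgfr1 5′ UTR peak: accccgggcggcGGACCcgagccctccccc
Fgfrl1 stop codon peak: gtactaccagatGAACAgccagccagattc
Spry1 stop codon peak: agggctcagggcAAACTgtcatgacttctg
Spry2 peak: ctacaggtgtgaGGACTgcggcaagtgcaa
Fgf7 3′ UTR peak: tttctttccagtGGACTtttcttctctctc

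The Fgfr1 window (chr8:25573892-25573921, plus strand) ends on the stop codon, and the A of its GGACT lies at position -12 from the last coding base. The Spry1 window (chr3:37643528-37643557, plus strand) also spans the stop codon, with the A at -6, and the Fgfrl1 window (chr5:108706391-108706420, plus strand) lies in the 3′ UTR, with the A at 63. The Spry2 window (chr14:105893197-105893226, minus strand) lies in the coding sequence at -406, and the Fgf7 window (chr2:126089605-126089634, plus strand) in the 3′ UTR at 61. The Fgfr1 5′ UTR window (chr8:25519180-25519209, plus strand) lies at -2822 along the spliced transcript. Over all transcripts searched, 43.6% of stretches as long as the shared part of the Fgfr1 stop codon peak (537 nt) hold a GGACT, as do 51.9% for Spry2 (687 nt) and 5.93% for the Fgf7 peak (60 nt). A DRACH is held by 69.1% of stretches of 60 nt, the length of the Fgfr1 5′ UTR peak, by 90.2% of 120 nt (Fgfrl1) and by 96.5% of 179 nt (Spry1), so such a match is common in any transcript. The shared stretch of the Fgfr2 peak (61 nt) held none.

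Fgfr1 carried 2 peaks. The peak at the stop codon (chr8:25573639-25574821) was in all 4 lists, with folds of 7.68 and 5.49 in GM against 4.89 and 5.61 in 3d DM, which overlap. The lists shared a stretch from -142 to 394 around the last coding base, and in all 4 the peak went on to at least 812 in the 3′ UTR, in separate parts in replicate 1 of each state. The peak in the 5′ UTR (chr8:25518938-25532278, crossing an intron) was not called in GM replicate 1, the library with the most Fgfr1 RNA, and had folds of 7.63 in GM replicate 2 and 2.60 and 3.51 in 3d DM. With 1 GM list it was not tested.

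Spry2 carried 1 broad peak (chr14:105892603-105896819) from its 5′ UTR over the coding sequence, which reached the 3′ UTR in 3 lists. Its folds were 8.25 and 10.1 in GM, compared with 7.67 and 7.35 in 3d DM. Both GM folds lay above both 3d DM folds, as for 21.8% of the 6055 peaks found in all 4 lists. In 3d DM replicate 2 the peak was called as separate parts, and it ended at -124, before the stop codon. Peaks covered 68.6% of the Spry2 transcript (2087 nt) and 58.1% of the Spry1 transcript (2773 nt) in at least 1 list. The share was 31.4% for Fgfr1 and 15.5% for Fgfrl1.

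The strength of a peak was compared as log2 of its fold, GM minus 3d DM, over the peaks called in all 4 lists. The difference was 0.31 for the Fgfr1 stop codon peak (SE 0.47, limma adjusted p = 0.996) and 0.28 for Spry2 (SE 0.53, adjusted p = 0.996), and the median over all such peaks was 0.11. Neither passed the test. Nor did any of the 6055 peaks (0%), of which 208 had an unadjusted p under 0.05. The Fgfr1 peak had a higher fold than 56.4% to 72.1% of these peaks in the 4 lists, and the Spry2 peak than 74.4% to 86.7%.

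Spry1 carried a peak (chr3:37642720-37644240) that was called in both 3d DM lists, with folds of 5.08 and 5.43, and in GM replicate 2 with 8.22. The longest stretch shared by the 3 lists ran from -112 to 66 around the last coding base. In 3d DM the peak ran from -798 to 692 and from -828 to 186, over most of the coding sequence (939 nt). The peak was not called in GM replicate 1, which had the larger Spry1 signal of the GM libraries. The called length was 240 nt in GM replicate 2 and 1491 and 1015 nt in 3d DM, where the RNA was 7.38-fold higher, and the part of RNA level in that length was not tested. A second peak in the 3′ UTR (fold 2.82) was in 3d DM replicate 1 only.

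Fgfrl1 carried a peak across its stop codon (chr5:108706269-108706508) in GM replicate 1 (fold 3.41) and in both 3d DM lists (1.79 and 2.43). The fold was thus lower in the 2 libraries with more Fgfrl1 RNA, with a single GM list for comparison. A second peak in the coding sequence (chr5:108704962-108705087, fold 1.98) was in 3d DM replicate 2 only.

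The genes with little RNA had peaks in few lists. Fgfr2 had a peak in the 5′ UTR of 1 annotated transcript (chr7:133123141-133123320) in replicate 1 of both states, with folds of 3.21 and 3.63. Fgf7 had peaks in the coding sequence in GM replicate 1 (folds 4.96 and 4.37) and a peak in the 3′ UTR in GM replicate 2 (fold 11.0). The GM lists thus shared no Fgf7 peak, and the 3d DM lists held none. Fgf2 had a peak near the end of its 3′ UTR (chr3:37409302-37409451) in 3d DM replicate 1 only, with a fold of 7.94. None of these reached a p-value under 1e-05.

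**Figure D4:**
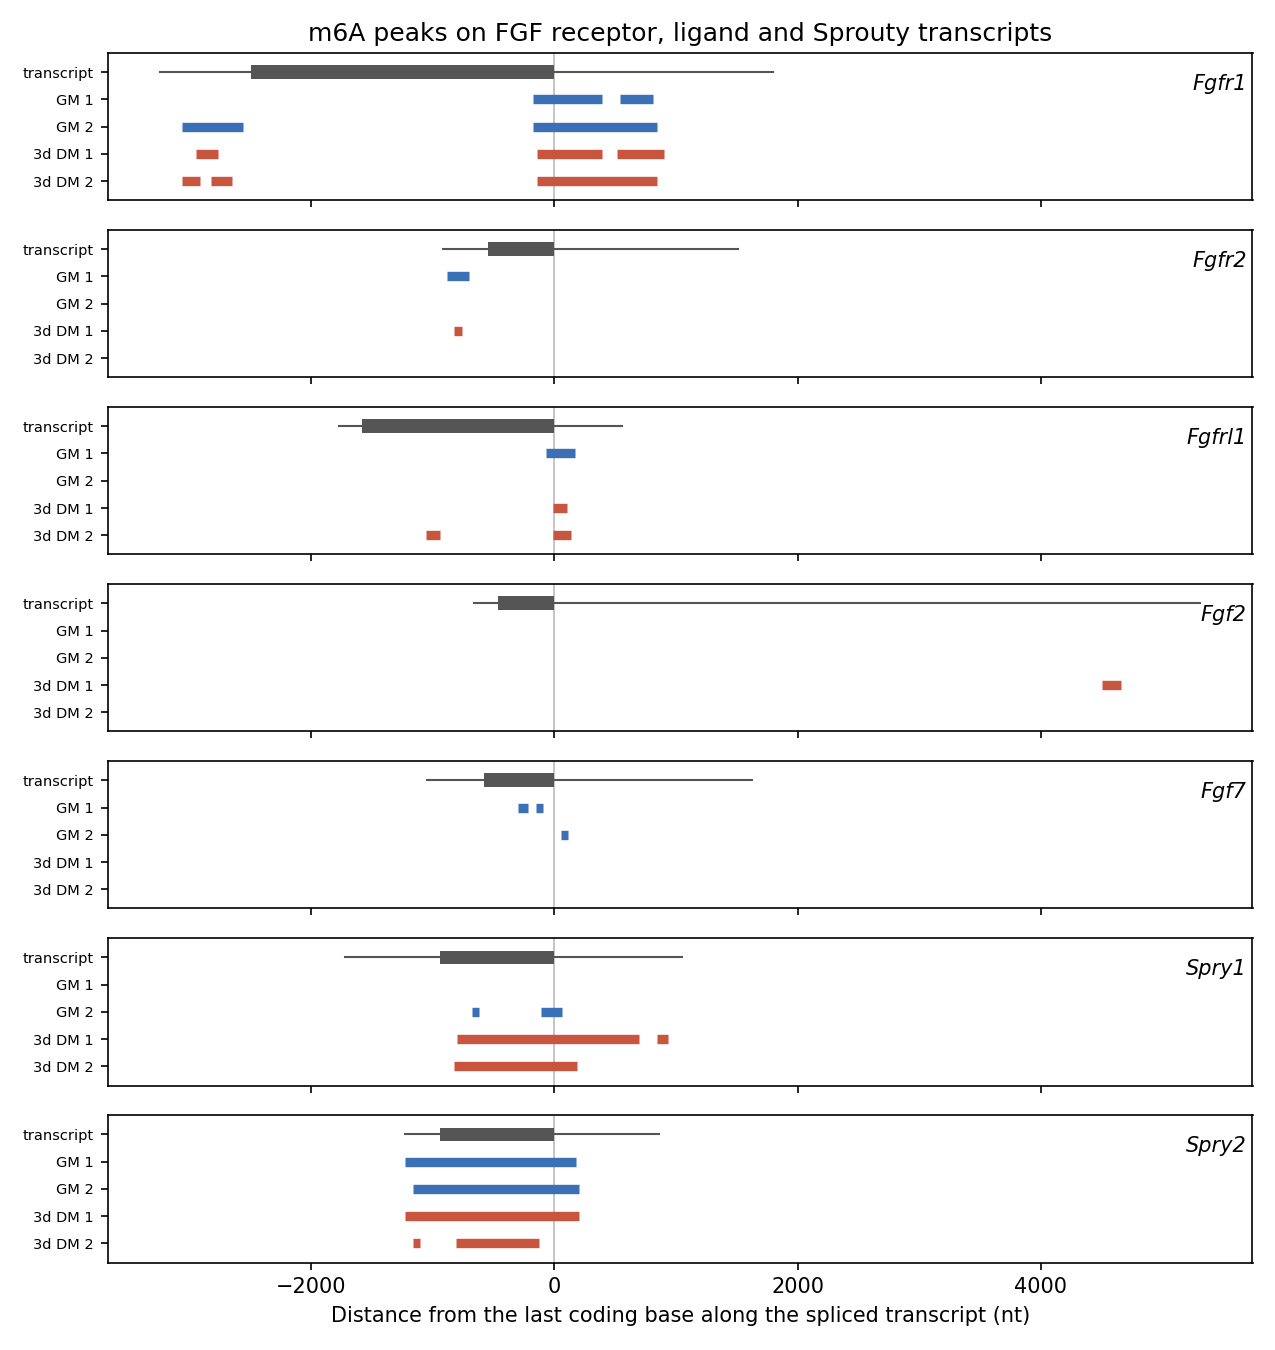
Position of the peaks along the spliced transcript of each of the 7 genes with a peak, in nucleotides from the last coding base, with a row for each list. The grey bar is the coding sequence and the thin line the whole transcript. Fgfr1, Fgfrl1, Spry1 and Spry2 have peaks at or near the stop codon in at least 3 lists, and the Fgf2 and Fgf7 peaks are each in a single row.

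**Figure D5:**
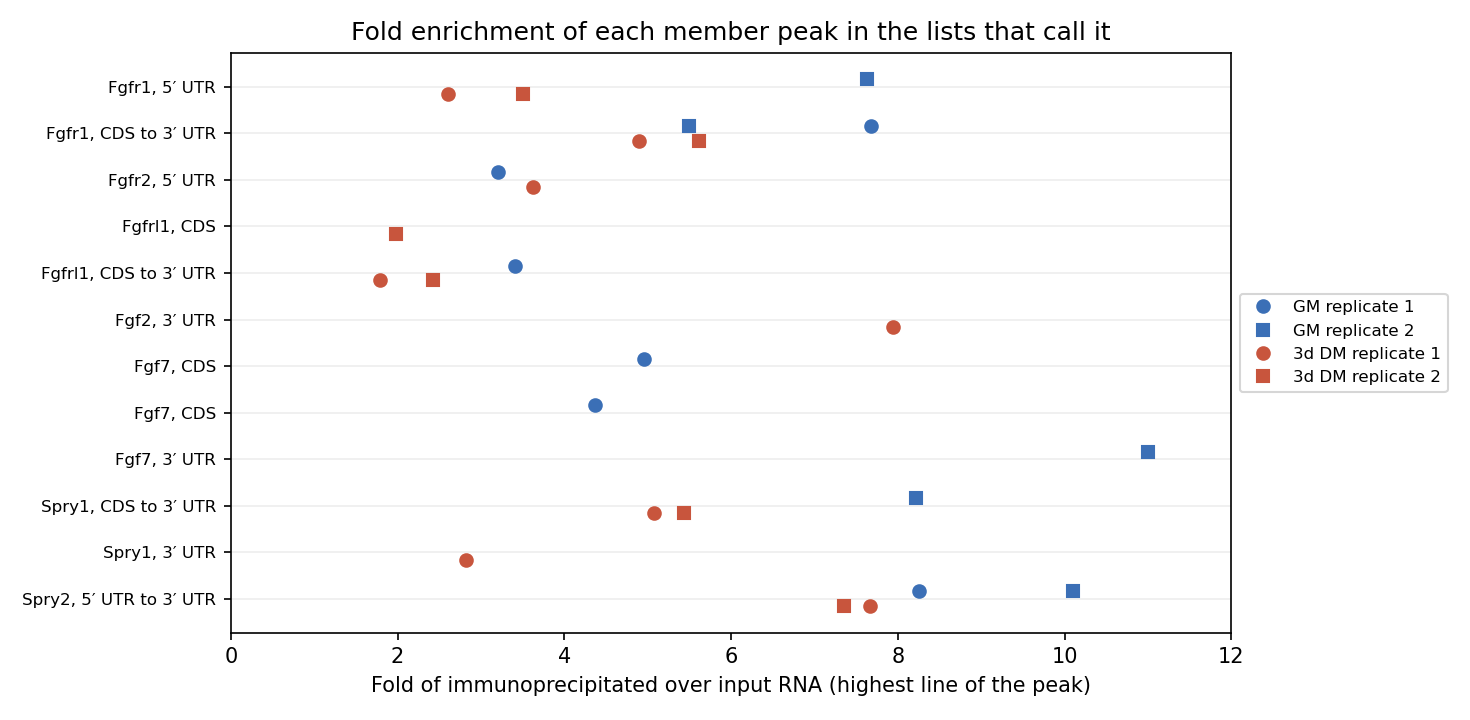
Fold of immunoprecipitated over input RNA for each of the 12 peaks in the lists that call it, on a linear axis from 0, with GM in blue, 3d DM in red, circles for replicate 1 and squares for replicate 2. The 2 peaks with 4 points are the Fgfr1 stop codon peak, where the states overlap, and the Spry2 peak, where the GM points lie to the right.

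Set side by side, none of the 4 members whose RNA was called higher in 3d DM had a peak in all 4 lists. Fgfrl1 and Spry1 had one in 3 lists and Fgfr3 and Fgf21 in none. Fgfr3, Fgf21 and Spry1 entered the RNA test through their 3d DM values and were low in GM. There a missing peak cannot be told apart from too little RNA to call one. The other pathway genes called were 10, of which 8 were higher in GM. All 10 had a peak in at least 1 list and 6 had one in all 4 (Fgfbp1, Dusp4, Dusp5, Dusp6, Elk3 and Myc). The counts of the 2 sets are thus not on an equal footing. Beside these counts, 75.1% of all tested genes had a peak in at least 1 list and 42.0% in all 4, and so did 54 and 32 of the 59 tested pathway genes.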

How the data were processed

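RNA and m6A values of C2C12 cells in GM and 3d DM came from the deposited files, with 2 input and 2 immunoprecipitated libraries in each state, grouped by the labels. The members and the gene lists were chosen with earlier results of these data known. The authors aligned reads to mm10 with HISAT2 (2.1.0) and used exomePeak to call each sample's peaks against its own input. Each peak list deposited by the authors gives, per peak and transcript, a p-value and the fold ratio of immunoprecipitated to input RNA. The deposited table holds a normalized signal per gene, made by the authors with edgeR and named TMM, a trimmed-mean scaling. Its low values fell on whole multiples of a step (within 0.02 reads) for 91.2% of genes in GM replicate 2 but for 10.8% to 33.4% in the other libraries, so reads were not recovered and depth is unknown.

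Genes that reached 2 cpm of a column's total (25.1) in 2 or more libraries were tested with limma 3.58.1 (R 4.3.3) on log2(signal + 1) with an intensity trend. The test of counts named in the design was not used, since the values are not counts. Standard errors followed the trend rather than each gene's own replicates. The labels do not say that replicates were separate cultures, so p-values speak only for these samples. For RNA they rest on the spread of all tested genes at a similar signal. On simulated data, 186 of 200 planted 4-fold changes were recovered among 11406 genes for RNA, with 12 false calls. For peak strength 120 of 200 were recovered among 6055 peaks, with 1 false call. The simulated noise had no spread particular to a gene or peak and no shift of scale between libraries, so these counts are best cases.

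Of the lists, all 10 members and each called pathway gene are named, with Myog, Myh3, Ckm and Mki67 as checks. Lengths, regions and positions came from GENCODE M21, within whose exons lay all peak lines on its transcripts. Positions are 1-based. Lines of 1 gene sharing a base were merged, and the highest fold was kept. Alternatives were other filters, pseudocounts of 0.1 and 4, 2 rescalings, no trend, the replicate number as a block, stricter peaks (p under 1e-05 or fold of at least 4), other merging, and each library left out. Python 3.11.15 and matplotlib 3.10.9 were used. The names of some genes called only after rescaling are not reported here.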

Additional observations from a re-analysis of the deposited data

How the results depend on the processing

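Of 36 recomputed counts of calls, 27 stayed within 1.5 times the reported one, 10 of them the counts of 0 for peak strength. The number of members called, 4 as reported, was 1 where all 4 libraries had to reach the minimum, with 4 members tested, and 0 with no filter on low values, where 4 of 10 had an unadjusted p under 0.05 in limma. For the other pathway genes, 10 as reported, these numbers were 5 and 0, with 14 of 85 at an unadjusted p under 0.05 without the filter. Leaving out each library in turn gave 2 to 3 members and 2 to 8 pathway genes. With a library left out, Fgfr1 ranged from -0.209 (without GM replicate 1) to 0.739 and was -0.046 without 3d DM replicate 1, and Fgfr4 ranged from -1.606 to 0.149 (without GM replicate 2). The cause was not tested, and a state left with 1 library was assumed to vary like the other state. The difference of -0.5 in the number of members with a peak ran from -1.5 to 0.5 with a library left out, and no peak strength was called under any setting.

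The replicate numbers are only shared labels: deviations of same-numbered libraries from their state means had a correlation of 0.29 across genes, with 2 pairs. With the replicate block, 3 members and 7 pathway genes were called, and Fgfrl1 was the member lost (adjusted p = 0.0574). With 2 libraries in each state, and depth unknown, levels under 25.1 and peaks in a single list are the least certain values here.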
